A study of Homo sapiens with 4 samples.

Results

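The enzymes that carry sterol synthesis from the closing of the ring to cholesterol were described in leukaemia cells recovered from the brain and the spleen of mice. The 9 genes, in pathway order, were LSS, CYP51A1, TM7SF2, MSMO1, NSDHL, HSD17B7, EBP, SC5D and DHCR7. They were chosen as the genes of these steps, by GENCODE symbol, and each was found once among the 65217 genes of the count table. All 9 passed the filter on low counts that left 17075 genes for testing.

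Cholesterol is made in the endoplasmic reticulum from acetyl-CoA. The early, mevalonate steps lead to squalene, which is epoxidised and folded by LSS into lanosterol, the first sterol. The late enzymes then remove methyl groups from lanosterol, move and reduce its double bonds, and release cholesterol, with several of the steps needing molecular oxygen and NADPH. Most genes of the pathway are transcribed by SREBP factors, which are set free when membrane sterol is low, and cells can take up cholesterol from lipoproteins in place of making it. Neurons and glia lie behind a barrier that keeps out plasma lipoproteins, so the brain makes nearly all of its own cholesterol.

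The cells were SEM, an established human B-cell precursor acute lymphoblastic leukaemia line with the t(4;11) translocation that joins KMT2A to AFF1 (MLL-AF4). They were grown in immunodeficient mice that were 6 to 10 weeks old, and all libraries share the cell line and the host. The study compared 2 libraries of cells retrieved from brain, where the protocol names the leptomeninges as the place of collection, with 2 libraries of cells from spleen. Each library pooled the RNA of 5 mice after a Ficoll gradient, and replicates 1 and 2 came from 2 separate occasions. The mouse strain, the number of cells injected, the time of collection and the purity measured by flow cytometry are not stated in the labels. An SEM xenograft is a single cell line, so the values describe that line and not leukaemias in general.

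The starts of the 4 genes that passed the test and of EBP, which did not, are printed here so that genes that rose can be read beside the gene with no direction. The sequences are from RefSeq on GRCh38.p14, 5′ to 3′ along the gene's strand, and were limited to stretches outside annotated exons. They are upstream parts of the windows described below, so some matches lie outside them and motif content cannot be compared from them. The GGGCGG matches of DHCR7 (−200, −187, −179 and −19 from the start) are not printed, nor are those of LSS at −48, −38 and 4. Capitals mark matches on either strand to CCAAT (the letters bound by NF-Y, read as ATTGG on the other strand), GGGCGG (the GC box bound by SP factors, read as CCGCCC on the other strand) or TCACNTGA (an E-box form bound by SREBP). Overlapping matches were counted separately. The MSMO1 stretch is chr4:165327419-165327649 (plus strand), the LSS stretch chr21:46228825-46229016 (minus), the CYP51A1 stretch chr7:92134523-92134548 (minus), the DHCR7 stretch chr11:71448436-71448561 (minus) and the EBP stretch chrX:48521607-48521792 (plus).
MSMO1: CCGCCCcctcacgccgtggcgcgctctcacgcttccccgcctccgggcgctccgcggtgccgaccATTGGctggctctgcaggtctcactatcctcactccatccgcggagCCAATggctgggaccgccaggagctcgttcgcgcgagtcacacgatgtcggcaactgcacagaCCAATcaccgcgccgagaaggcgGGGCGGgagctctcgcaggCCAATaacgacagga
LSS: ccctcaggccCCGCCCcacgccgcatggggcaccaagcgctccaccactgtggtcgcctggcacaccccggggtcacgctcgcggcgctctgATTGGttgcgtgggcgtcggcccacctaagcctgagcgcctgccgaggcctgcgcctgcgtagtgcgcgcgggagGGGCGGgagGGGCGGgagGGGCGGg
CYP51A1: gcggaacatcCCGCCCcattctgtga
DHCR7: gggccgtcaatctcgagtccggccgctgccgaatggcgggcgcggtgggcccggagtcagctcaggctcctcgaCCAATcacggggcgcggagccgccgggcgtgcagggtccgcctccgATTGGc
EBP: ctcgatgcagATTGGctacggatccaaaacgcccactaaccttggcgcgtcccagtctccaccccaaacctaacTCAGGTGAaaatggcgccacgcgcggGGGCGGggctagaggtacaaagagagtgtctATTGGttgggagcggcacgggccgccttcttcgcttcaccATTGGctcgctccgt

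In windows from 250 bases before to 50 after each start, CCAAT was found in 8 of the 9 genes (9 of their 11 windows) and in 34.6% of all 35116 windows of the same length. GGGCGG was also found in 8 of the 9 genes (9 of their 11 windows), against 45.0% of all windows. CYP51A1 was the gene without CCAAT, and NSDHL, with 5 CCAAT matches, was the gene without GGGCGG. TCACNTGA was found in EBP alone among the 9, and in 3.79% of all windows. TCACNCCAC, a form of the sterol regulatory element, was in none of the 9 and in 1.13% of all windows. EBP, whose level did not pass the test, held both CCAAT and GGGCGG in its window, as did MSMO1, LSS and DHCR7, which rose. These matches are descriptions of letters and not of binding.

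Gene counts summed to between 26266136 and 36913437 per library. Over all 17075 genes, edgeR's quasi-likelihood test called 279 higher (1.63%) and 66 lower (0.387%) in brain at an adjusted p under 0.05, and 1278 higher (7.48%) with the replicate number as a block. Of the calls, 80.9% were higher in brain, and 57.4% were when trends with GC content and transcript length had been removed. All genes had a median of 0.04 in log2 fold change, which moved to −0.08 with the length trend or both trends removed. Spleen replicate 2 stood apart by base composition, being low at genes of low GC content: in the lowest of 5 GC classes it deviated from the mean of the 4 libraries by a median of −0.39 (log2), and the others by 0.14 to 0.15. The 9 B-cell precursor markers were all measured, with summed CPM (each library's counts scaled to sum to 1e6) of 2461 and 2406 in brain and 1759 and 1834 in spleen. Without a block 1 of them, CD22, passed the test (1.48 ± 0.19). With the replicate block 4 of the 9 were higher by edgeR and 0 lower, where 1278 of 17075 genes were higher and 575 lower. These were IGLL1 (2.72, adjusted p = 1.04e-28), CD22 (1.51, adjusted p = 5.49e-11), CD79B (1.37, adjusted p = 2.18e-08) and EBF1 (0.71, adjusted p = 0.00572). Of the markers of other cells, CD3D, CD2 and SNAP25 had 0 counts in every library (which allows up to 0.0813 to 0.114 CPM) and GFAP at most 3, while MBP, SYT1, PECAM1 and the T-cell receptor gene TRAC were detected, TRAC with 3492 to 4402 counts. The myeloid CSF1R was also detected, with 661 to 1121 counts, while the erythroid genes had at most 6. MPO (−1.19, adjusted p = 0.0704) and VWF (−2.46, adjusted p = 0.0576) had negative fold changes and did not pass by edgeR without a block. With the replicate block both passed as lower by edgeR (adjusted p = 0.00408 and 0.00415) and not by DESeq2 (0.17 and 0.375). PECAM1 and SYT1 passed as higher with the block by edgeR (adjusted p = 0.000913 and 7.11e-05). The neural and glial list had a summed CPM of 180 and 159 for brain and of 117 and 102 for spleen. The endothelial list had 73.3 and 52.2 for brain and 34.5 and 32.0 for spleen, and the myeloid list 35.2 and 28.9 for brain and 37.4 and 34.0 for spleen. Mouse transcripts took 2.24% and 1.45% of the estimated counts in brain and 4.31% and 6.32% in spleen. The part of these differences in the results below was not tested.

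Of the 9 late sterol enzymes, 4 rose in cells from brain (MSMO1, CYP51A1, DHCR7 and LSS), 0 fell and 5 did not pass, where 1.63% of all genes were called higher and 0.387% lower. The 4 that rose were between 1.81 and 2.56 times as abundant in brain as in spleen by mean CPM, here scaled with TMM factors. At an unadjusted p under 0.05 edgeR gave 7 higher and 0 lower, where 10.7% of all genes were higher and 9.94% lower. DESeq2 called 6 higher and 0 lower, where it called 3.45% of its 15390 genes higher and 2.55% lower. All but EBP were higher in both brain libraries than in either spleen library, as were 30.2% of all tested genes. The median log2 fold change (brain over spleen) was 0.86 over the 9 enzymes and 0.04 over all genes. With the replicate block 6 rose, HSD17B7 and SC5D being added, where 7.48% of all genes were called higher. In bulk RNA, a change in the share of cells that express a gene and a change in RNA per cell cannot be told apart. The plot of CPM by library shows the values behind these counts.

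**Figure D1:**
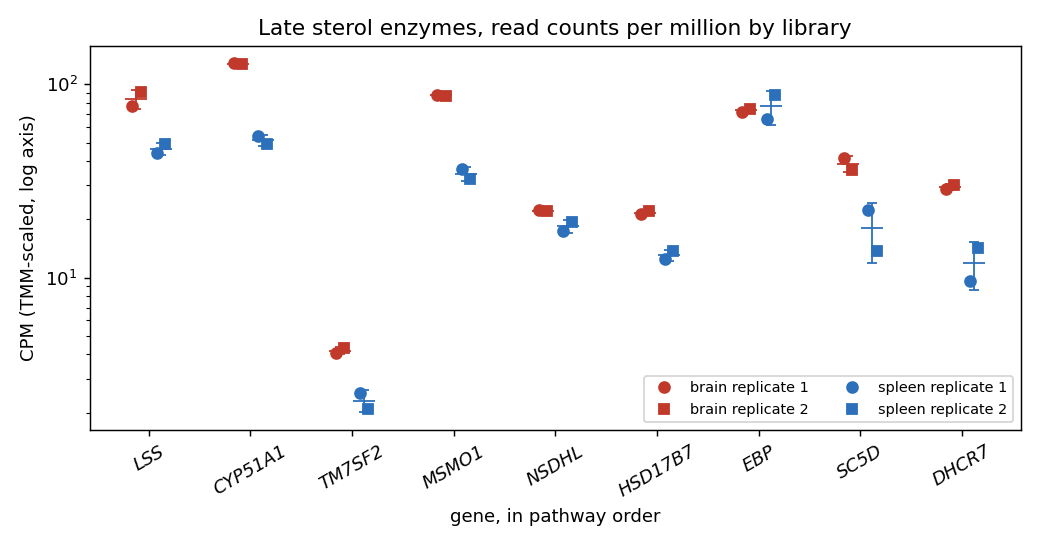
CPM (TMM-scaled, log axis) of the 9 late sterol enzymes in pathway order. Circles are replicate 1 and squares replicate 2, red for brain and blue for spleen, and the horizontal marks with bars are the mean ± SD (n = 2). For EBP the spleen libraries lie on both sides of the brain libraries, and for the other 8 genes both brain libraries lie above both spleen libraries.

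LSS, lanosterol synthase, closes the sterol ring by folding squalene epoxide in a single step. It is ENSG00000160285 on chromosome 21 (46188141 to 46228824, minus strand, GRCh38). Its level was 77.4 and 91.1 CPM in brain and 44.3 and 48.9 CPM in spleen. The groups were apart, and the lowest brain library was 1.58 times the highest spleen library. The log2 fold change was 0.86 ± 0.16 (SE), with an adjusted p = 0.0416 by edgeR, the weakest of the 4 calls. Leaving out brain replicate 1 ended the call (0.97, adjusted p = 0.0977), as did leaving out brain replicate 2 (0.74, adjusted p = 0.328). It did not pass with the length trend removed (0.61, adjusted p = 0.151). Over 15 alternatives its adjusted p by edgeR or DESeq2 ran from 2.53e-05 to 0.328 and it passed in 9 of them.

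The 3 enzymes that consume molecular oxygen had log2 fold changes above 1, and 2 of them passed the test. CYP51A1, the cytochrome P450 that takes the first methyl group off lanosterol, is ENSG00000001630 on chromosome 7 (92084987 to 92134803, minus strand). It stood at 128 CPM in both brain libraries (128.4 and 127.5) and at 53.9 and 49.0 CPM in spleen. Its log2 fold change was 1.31 ± 0.14 (adjusted p = 0.00668, edgeR), and the gap between the sites was many times the spread within either. MSMO1, the methyl sterol monooxygenase that oxidises the remaining pair of methyl groups, is ENSG00000052802 on chromosome 4 (165327667 to 165343164, plus strand). It followed the same pattern, with 88.5 and 87.4 CPM in brain and 36.4 and 32.3 CPM in spleen, and a log2 fold change of 1.36 ± 0.15 (adjusted p = 0.00742, edgeR). Both genes passed under each of the 15 alternatives, with adjusted p (edgeR or DESeq2) of at most 0.021 for CYP51A1 and 0.022 for MSMO1.

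SC5D, the desaturase that introduces a ring double bond late in the pathway, is ENSG00000109929 on chromosome 11 (121292681 to 121313410, plus strand). Its level was 41.7 and 36.2 CPM in brain and 22.4 and 13.7 CPM in spleen. The spleen libraries thus differed 1.64-fold from each other, the widest gap among the 9 enzymes, and spleen replicate 2 was the lower. The log2 fold change of 1.11 ± 0.25 did not pass (adjusted p = 0.078, edgeR), whereas it did with the replicate block (1.15, adjusted p = 2.77e-05). It also passed without spleen replicate 2 (0.81, adjusted p = 5.31e-05), without spleen replicate 1 (1.46, adjusted p = 2.8e-09) and when brain replicate 2 was left out (1.21, adjusted p = 0.013), but not when brain replicate 1 was (1.00, adjusted p = 0.0936). Its adjusted p ran from 2.8e-09 to 0.115 over the 15 alternatives.

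The transcripts of all 3 oxygen-using enzymes belong to the lowest of 5 GC classes, where spleen replicate 2 was low: 41.1% for CYP51A1, 37.7% for MSMO1 and 37.3% for SC5D. With the GC and length trends removed, the log2 fold changes were 1.09 ± 0.13 for CYP51A1, 1.09 ± 0.17 for MSMO1 and 0.87 ± 0.14 for SC5D, and all 3 passed by edgeR (adjusted p = 0.00336, 0.011 and 0.011). Without spleen replicate 2 the fold changes were 1.26, 1.29 and 0.81. LSS, TM7SF2 and DHCR7 belong to the class highest in GC. There spleen replicate 2 was high, with a median deviation of 0.17 (log2), and the others deviated by −0.07 to −0.04. With the GC and length trends removed, the log2 fold changes were 0.74 ± 0.14 for LSS, 0.97 ± 0.26 for TM7SF2 and 1.32 ± 0.17 for DHCR7.

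The pair of enzymes that follow MSMO1 in taking off the remaining methyl groups did not pass. NSDHL, the decarboxylating sterol dehydrogenase, is ENSG00000147383 on chromosome X (152830967 to 152869729, plus strand). It had 22.3 and 22.1 CPM in brain and 17.5 and 19.5 CPM in spleen. These groups did not overlap, but the log2 fold change was only 0.26 ± 0.16 (adjusted p = 0.401, edgeR), and it passed in 0 of the 15 alternatives (adjusted p from 0.081 to 0.892). HSD17B7, which reduces the resulting ketone, is ENSG00000132196 on chromosome 1 (162790702 to 162812823, plus strand). It had 21.4 and 22.0 CPM in brain and 12.5 and 13.7 CPM in spleen. Its log2 fold change was 0.73 ± 0.17 (adjusted p = 0.0741, edgeR), and with the replicate block it passed by edgeR (0.73, adjusted p = 0.0221) and not by DESeq2 (0.69, adjusted p = 0.239).

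Without spleen replicate 1 the log2 fold change of HSD17B7 was 0.62, and without spleen replicate 2 it was 0.81. It was 0.75 without brain replicate 1 and 0.71 without brain replicate 2. These fits also leave 1 library in a group. Over the alternatives with all 4 libraries, the adjusted p of HSD17B7 (edgeR or DESeq2) ran from 0.00188 to 0.239. The HSD17B7 count can share reads with the near-identical pseudogene HSD17B7P2, so the split between them is uncertain. HSD17B7P2 was listed with 220 and 230 counts in brain and 114 and 84 in spleen, against 790, 753, 412 and 345 for HSD17B7. The pseudogene's log2 fold change was 0.90 ± 0.23 (adjusted p = 0.0939, edgeR).

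Of the double bond reductases, DHCR7 rose and TM7SF2 did not pass. DHCR7, dehydrocholesterol reductase, whose substrate is also the precursor of vitamin D, is ENSG00000172893 on chromosome 11 (71428193 to 71452868, minus strand). Its level was 28.9 and 30.1 CPM in brain and 9.58 and 14.3 CPM in spleen. Even the higher spleen library stood at less than the lower brain library by a factor of 2.02. The log2 fold change was 1.31 ± 0.22 (adjusted p = 0.0324, edgeR). Leaving out spleen replicate 1 gave 0.99 and leaving out spleen replicate 2 gave 1.63. The call was lost in 1 of the 15 alternatives, a filter of at least 1 CPM in all libraries (adjusted p = 0.0577), and the adjusted p ran from 1.1e-11 to that value.

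TM7SF2, the reductase of the double bond left by CYP51A1, is ENSG00000149809 on chromosome 11 (65111845 to 65116384, plus strand). It had the fewest counts of the 9, with 4.08 and 4.30 CPM in brain and 2.52 and 2.10 CPM in spleen, from 151, 147, 83 and 53 counts. Its log2 fold change of 0.86 ± 0.26 was as large as that of LSS but did not pass (adjusted p = 0.128, edgeR). It passed with the GC and length trends removed together with the replicate block (0.98, adjusted p = 0.00832, edgeR). Over the alternatives with all 4 libraries, the adjusted p of TM7SF2 (edgeR or DESeq2) ran from 0.00832 to 0.523. Without spleen replicate 1, a fit with 1 library in a group, the log2 fold change was 0.95. LBR, the lamin B receptor, carries the same reductase activity, and its values stand with the partners of the late steps.

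EBP, the isomerase that shifts the ring double bond between the demethylation steps and SC5D, is ENSG00000147155 on chromosome X (48521799 to 48528716, plus strand). It had 72.0 and 74.9 CPM in brain and 66.0 and 88.2 CPM in spleen, so the groups overlapped. The spleen libraries differed 1.34-fold and enclosed both brain libraries. The log2 fold change was −0.07 ± 0.17 (adjusted p = 0.852, edgeR), and its sign turned with the length trend removed (0.02), with both trends removed (0.08) and without spleen replicate 2 (0.17). Without spleen replicate 1 it was −0.32 and passed as lower in brain (adjusted p = 0.00676), in a fit that called 6807 genes in all. The adjusted p ran from 0.00676 to 0.987 over the alternatives, and no direction can be given for this gene.

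**Figure D2:**
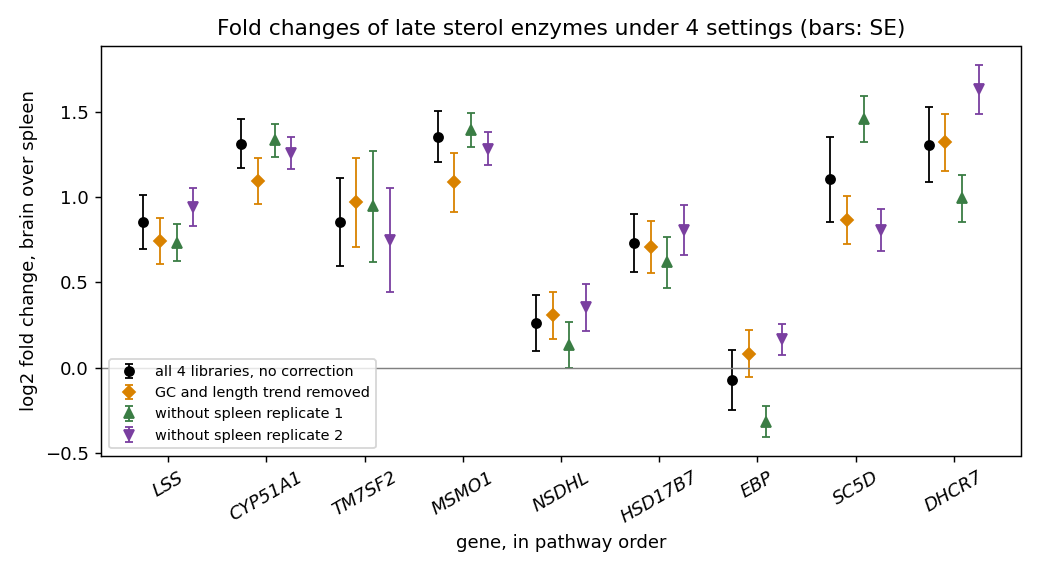
Log2 fold change (brain over spleen, bars ± SE) of the 9 enzymes from edgeR under 4 settings: all libraries without correction (black), with GC and length trends removed (orange), and without spleen replicate 1 (green) or 2 (purple). The points of 8 genes lie above 0 in all 4 settings, and those of EBP lie at −0.07, 0.08, −0.32 and 0.17.

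Levels can be compared between genes only per transcript length, here as TPM (length-scaled abundance, rescaled to sum to 1e6 over the human transcripts). EBP was the highest of the 9 in every library, with 131 and 140 TPM in brain and 111 and 142 TPM in spleen. Its level depends on how its counts were split over transcripts of unlike length. In brain replicate 1, the transcript EBP-205 held 21.2% of the gene's estimated counts and 9.77% of its TPM. MSMO1 (62.5 and 67.4 TPM) and CYP51A1 (62.7 and 63.2 TPM) came next in brain and changed places between the libraries. LSS followed with 28.9 and 36.1 TPM. SC5D had 28.0 and 27.3 TPM and HSD17B7 23.3 and 25.2 TPM. The brain levels of NSDHL (18.99 and 19.8 TPM) and DHCR7 (17.3 and 19.6 TPM) overlapped, and TM7SF2 was last with 4.84 and 5.85 TPM.

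In spleen the same gene was first and the same gene last, and the genes between them stood lower than in brain. MSMO1 (25.7 and 21.2 TPM) and CYP51A1 (24.0 and 19.5 TPM) overlapped. LSS had 15.6 and 15.3 TPM, close to NSDHL with 14.8 and 14.7 TPM. HSD17B7 had 12.97 and 12.4 TPM, inside the range of SC5D with 14.5 and 8.09 TPM. DHCR7 (5.51 and 7.27 TPM) and TM7SF2 (2.95 and 2.49 TPM) were the lowest. The 9 together summed to 377 and 404 TPM in brain and 227 and 243 TPM in spleen, of which EBP made up 34.6% in each brain library and 49.0% and 58.5% in spleen. Without EBP the sums were 247 and 264 TPM in brain and 116 and 101 TPM in spleen.

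**Figure D3:**
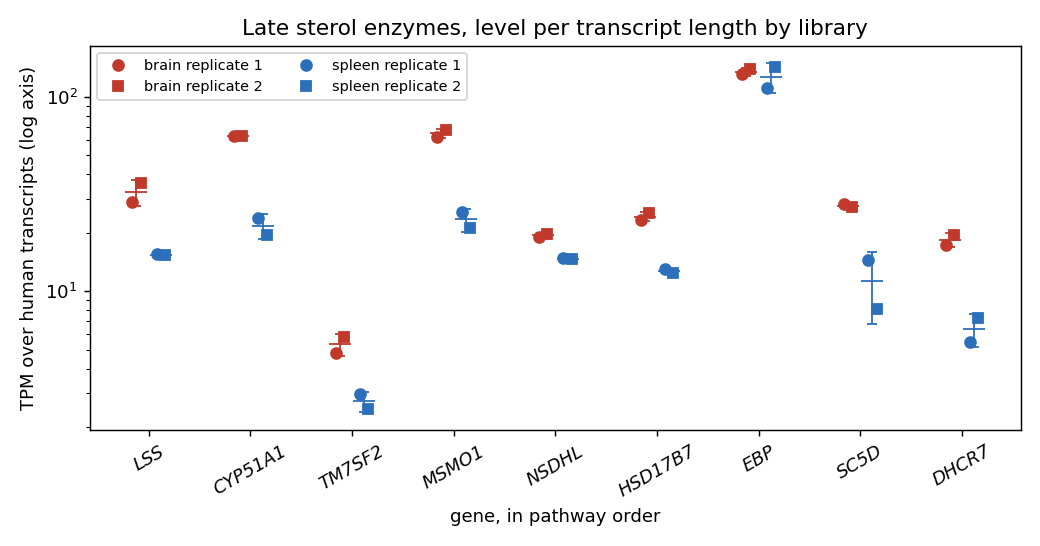
TPM over human transcripts (log axis) of the 9 enzymes in pathway order, with symbols as in the plot of CPM and marks with bars for the mean ± SD (n = 2). EBP stands highest in all 4 libraries and TM7SF2 lowest, and the levels of NSDHL and DHCR7 overlap in brain and not in spleen.

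The transcript files split each gene's signal over annotated transcripts. These estimates carry no error in the files, and they are given as a description without a test. For MSMO1, the 293-codon transcript MSMO1-201 had 45.7 and 42.7 TPM in brain and 15.0 and 8.79 TPM in spleen. The shorter MSMO1-202, with 5 exons in place of 6 and 162 codons, had 11.7 and 16.5 TPM in brain and 9.06 and 11.8 TPM in spleen, so its groups overlapped. MSMO1-201 thus made up 73.2% and 63.3% of the gene's TPM in brain and 58.3% and 41.5% in spleen.

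For CYP51A1, the full-length transcript CYP51A1-201 (509 codons) had 51.1 and 54.6 TPM in brain and 22.4 and 18.7 TPM in spleen. CYP51A1-203, which starts upstream of it and has 404 codons, had 11.2 and 8.41 TPM in brain and 1.60 and 0.58 TPM in spleen. The upstream form was therefore 17.8% and 13.3% of the gene in brain and 6.67% and 2.98% in spleen, the opposite order of shares to CYP51A1-201. As shares of estimated counts, which do not correct for length, the difference in mean share of CYP51A1-203 was 6.14 percentage points and not 10.7.

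LSS was mostly LSS-205 (652 codons), with 66.3% to 72.4% of the gene's TPM in the 4 libraries. LSS-211 (721 codons) had 4.52 and 4.64 TPM in brain, was listed at 0 in spleen replicate 1 and had 0.66 TPM in spleen replicate 2. The retained intron form LSS-208 made up 1.49% and 5.74% in brain and 8.57% and 14.0% in spleen. Thus the difference between sites in LSS was not carried by the retained intron form, which had 0.43 and 2.07 TPM in brain and 1.34 and 2.14 TPM in spleen.

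DHCR7-201 and DHCR7-202 encode a protein of the same length (475 codons) and were divided unevenly within each group. DHCR7-201 took 61.8% and 81.7% in brain and 85.7% and 45.4% in spleen, with overlapping groups. Between 50.8% and 62.0% of the EBP signal was assigned to EBP-201, which GENCODE annotates without a coding sequence: 67.5 and 71.0 TPM in brain and 66.0 and 88.3 TPM in spleen. EBP-205, the transcript with the full 230 codons, had 12.8 and 15.1 TPM in brain and 12.5 and 9.37 TPM in spleen, and its lowest brain and highest spleen library were nearly level. EBP-202, a coding form of the annotation, overlapped between the groups (21.0 and 15.3 TPM in brain, 12.9 and 22.1 TPM in spleen). The coding form EBP-203 was higher in both brain libraries, with 16.3 and 18.7 TPM against 12.8 and 7.95 TPM in spleen. EBP-206, annotated without a coding sequence, overlapped (12.4 and 19.3 TPM in brain, 6.87 and 14.3 TPM in spleen). TM7SF2, with 26 annotated transcripts in the files, was spread over 9 that reached 10% of its TPM in some library. Its 418-codon form TM7SF2-201 had 1.25 and 1.88 TPM in brain and 0.60 and 0.57 TPM in spleen.

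**Figure D4:**
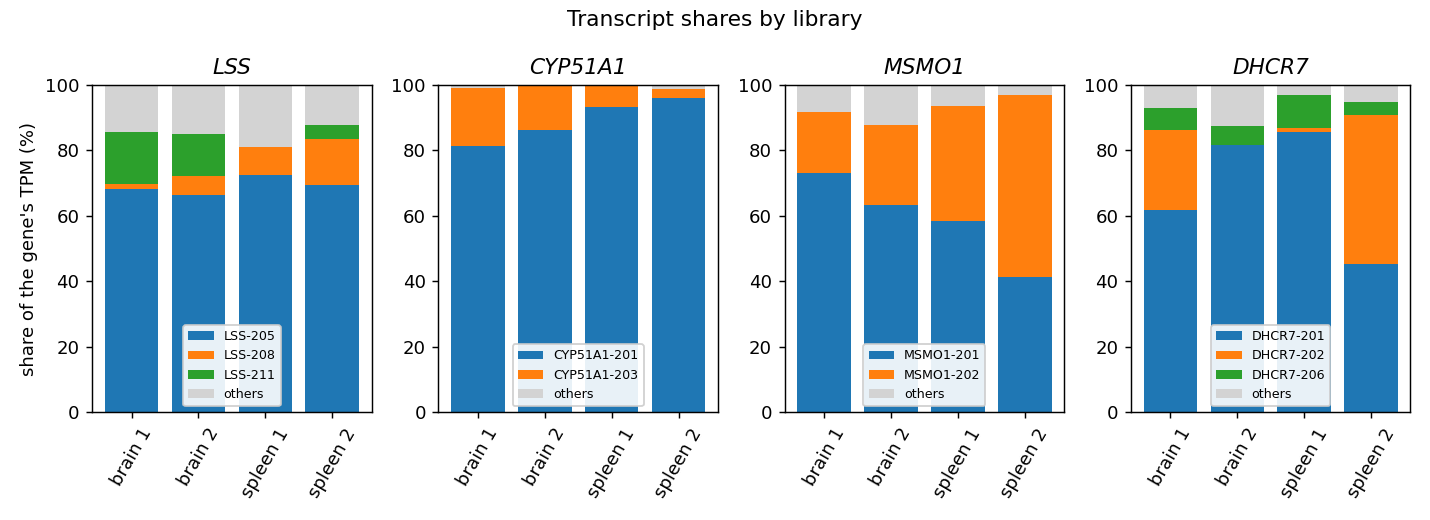
Share of each gene's TPM (%, stacked bars that sum to 100) taken by the transcripts that reach 10% in some library, for LSS, CYP51A1, MSMO1 and DHCR7, with all others in grey. The share of MSMO1-201 is lower in both spleen libraries, that of CYP51A1-203 is higher in both brain libraries, and DHCR7-202 holds 24.3% and 0.06% in brain and 1.14% and 45.4% in spleen.

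Genes that overlap the enzymes on the genome could take or lend reads, and whether they did was not tested. The strand option of the counting is not given in the sources used here. AKAP9, a scaffold protein gene on the opposite strand, overlaps 25687 bases of the annotated span of CYP51A1. AKAP9 ends at 92110673, and the 2 CYP51A1 transcripts with at least 10% of the gene's TPM have their lowest coordinates at 92112153 and 92113412. AKAP9 had 2749 and 2688 counts in brain and 1698 and 391 in spleen (1.19 ± 0.67, adjusted p = 0.42, edgeR). CYP51A1 had 4748 and 4356 counts in brain and 1778 and 1239 in spleen. The antisense RNA CYP51A1-AS1 had at most 6 counts in any library. The long non-coding RNA antisense to DHCR7 (ENSG00000254682) had 29 to 73 counts against 316 to 1067 for DHCR7, and the opposite-strand RNAs within LSS had at most 5. On the same strand, VPS51 overlaps 18 bases of TM7SF2 and had 3017 to 3937 counts. Also on the same strand, ENSG00000286268 overlaps 6911 bases of EBP. ENSG00000285772 and ENSG00000289027 overlap 22645 and 22628 bases of CYP51A1. No counts are listed for these last genes.

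The enzymes upstream of LSS included, among 10 described here, 4 that rose, 0 that fell and 6 that did not pass, where 1.63% of all genes were called higher and 0.387% lower. Their median log2 fold change was 0.59, against 0.04 for all genes. HMGCS1, which makes HMG-CoA, rose by 1.81 ± 0.19. SQLE, the squalene epoxidase that feeds LSS and also uses oxygen, rose by 1.49 ± 0.16. FDFT1, squalene synthase and the gene of highest CPM on the list, rose by 1.02 ± 0.13 (adjusted p = 0.00569, 0.00569 and 0.012 by edgeR). The fourth was MVK, mevalonate kinase (0.94 ± 0.17, adjusted p = 0.039), which did not pass without brain replicate 1 (adjusted p = 0.157) or 2 (adjusted p = 0.135). With the replicate block 5 of the 10 rose, where 7.48% of all genes were called higher. Of the 10, 0 were lower at an unadjusted p under 0.05 by edgeR and 0 by DESeq2, where 9.94% and 2.55% of all genes were.

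Among 13 other enzymes and partners of the late steps described here, 0 rose and 0 fell by edgeR, where 1.63% and 0.387% of all genes did. The median was −0.16. LBR, the gene of highest CPM on the list and a membrane protein that also reduces a ring double bond, had 313 and 311 CPM in brain and 344 and 287 CPM in spleen, and a log2 fold change of −0.01 ± 0.14 (adjusted p = 0.968). POR, CYB5A, CYB5B and CYB5R3, which pass electrons to CYP51A1, MSMO1 or SC5D, were on this list and none passed the test, with log2 fold changes of −0.04, −0.53, −0.16 and −0.33 as against 1.11 to 1.36 for the 3 oxygen-using enzymes. Those 4 were singled out after their values were seen. With the replicate block 1 of the 13 rose, the pseudogene HSD17B7P2, where 7.48% of all genes were called higher. At an unadjusted p under 0.05 edgeR gave 2 higher and 3 lower, where 10.7% and 9.94% of all genes were, and DESeq2 called 0 in either direction.

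Of 10 genes of SREBP control and sterol uptake described here 2 rose, 0 fell and 8 did not pass, with a median of 0.61. Over all genes 1.63% were called higher and 0.387% lower. INSIG1, which holds SREBP in the endoplasmic reticulum, rose by 1.78 ± 0.17 (adjusted p = 0.00358, edgeR). SREBF2, the SREBP gene most tied to sterol synthesis and the gene of highest CPM on the list, rose by 0.91 ± 0.13 (adjusted p = 0.021). SREBF2 did not pass when brain replicate 1 (adjusted p = 0.0518) or brain replicate 2 (adjusted p = 0.0774) was left out, or with the length trend removed (adjusted p = 0.137). With the replicate block 5 of the 10 rose, where 7.48% of all genes were called higher. Of the 10, DESeq2 called 5 higher and 0 lower, where 3.45% and 2.55% of all genes were. At an unadjusted p under 0.05 by edgeR 0 were lower, where 9.94% of all genes were.

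Of 7 genes of LXR and sterol efflux, 6 were tested and 1 rose, where 1.63% of all genes were called higher. The median was −0.08. The gene that rose was MYLIP, a ubiquitin ligase induced by LXR (1.56 ± 0.16, adjusted p = 0.00542, edgeR). NR1H2, an LXR and the gene of highest CPM, had a log2 fold change of −0.10 ± 0.16. With the block 2 of the 6 rose by edgeR, where 7.48% of all genes were called higher: MYLIP and the sterol exporter gene ABCA1. ABCA1, named after its value was seen, had 1.21 ± 0.28 without the block (adjusted p = 0.0724, edgeR). With the block it had 1.22 (adjusted p = 0.00416), and it did not pass by DESeq2 with the block (adjusted p = 0.239). Of 6 proliferation genes 0 passed (median −0.15), and 0 passed with the block by edgeR. At an unadjusted p under 0.05 there were 0 higher and 2 lower (9.94% of all genes were lower). DESeq2 called 1 lower, where it called 2.55% of all genes lower: PCNA, the replication clamp, named after its value was seen. TOP2A, a topoisomerase of dividing cells and the gene of highest CPM, had 716 and 763 CPM in brain and 744 and 383 CPM in spleen.

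**Figure D5:**
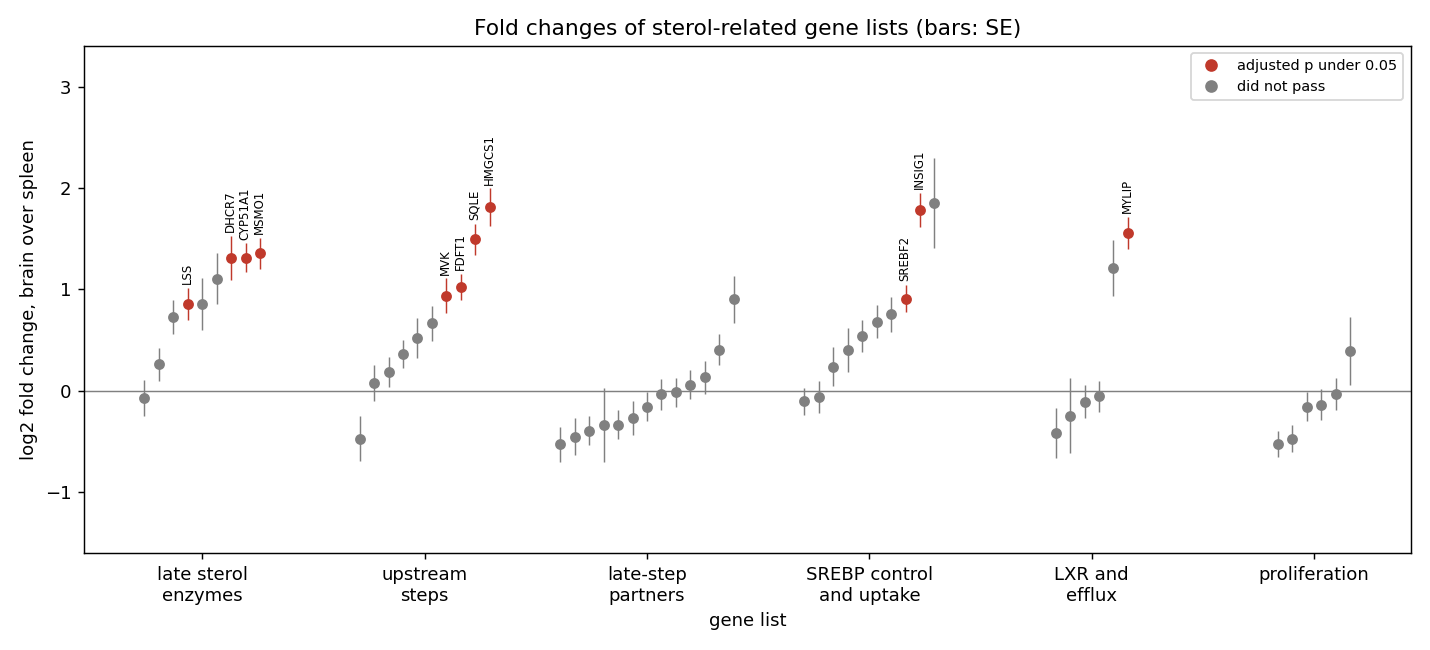
Log2 fold change (brain over spleen, bars ± SE) of each tested gene, by list, with genes at an edgeR adjusted p under 0.05 in red and named. Of the late sterol enzymes 4 of 9 are red, of the upstream steps 4 of 10, of the late-step partners 0 of 13, of SREBP control and uptake 2 of 10, of LXR and efflux 1 of 6 and of proliferation 0 of 6. Over all genes 1.63% were called higher and 0.387% lower.

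The 9 enzymes did not all share a pattern over the 4 libraries. Centred over the libraries, their median log2 CPM was 0.39 (replicate 1) and 0.47 (replicate 2) for brain, and −0.43 and −0.38 for spleen. By Euclidean distance from this median, HSD17B7 (0.122), LSS (0.130) and TM7SF2 (0.219) were the closest of the 9, and SC5D (0.656) and EBP (0.926) the farthest. Among 9033 other protein-coding genes of at least 10 mean CPM, the 5 closest to the median were CLCN6 (0.0462), GSE1 (0.0864), PPFIBP1 (0.0902), YPEL3 (0.0938) and STARD9 (0.0969). With 4 libraries such likeness is a description only. CLCN6, a chloride and proton exchanger of endosomes, had 37.7 and 39.1 CPM in brain and 21.0 and 21.4 CPM in spleen.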

How the data were processed

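RNA was sequenced from 4 libraries, made with a stranded poly(A) kit per the labels' protocols. The submitters' processing notes name bcl2fastq 1.8.4, cutadapt 1.5, kallisto 0.42.4 and DESeq2, with GRCh38 and GRCm38. The annotation release and strand option: not given in the sources used here. As deposited, the gene table consists of rounded estimated counts without normalisation. As deposited, each transcript file lists an estimated count (expected count) and a TPM value per transcript over human and mouse together. With GENCODE release 44, 74.2% to 74.8% of genes over 50 counts equalled the sum of their transcripts within 1 count. In the count file, 1 column matched no sample and was not used. The deposited log2 table was not used.

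Brain was compared with spleen by edgeR 4.0.16 (R 4.3.3; TMM factors, filterByExpr, robust quasi-likelihood fit, Benjamini-Hochberg adjustment over 17075 genes, threshold 0.05), applied to the rounded estimated counts. Fold changes are log2 ratios of brain to spleen ± SE. Alternatives were DESeq2 1.42.0, other size factors and filters, transcript sums, removal of GC and length trends (mgcv 1.9.3), a replicate block and leaving out each library. The scripts were tested on simulated data. TPM was rescaled to sum to 1e6 over human transcripts. Limits from a count of 0 use 3 counts and cover counting error only.

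The 9 enzymes and all lists were chosen with earlier results of these data known. A few genes of these lists are not reported here, and the counts are over the genes that are. The named genes were the 9 enzymes, up to 4 called genes of each list by fold change, its gene of highest mean CPM, overlapping genes, transcripts with at least 10% of the gene's TPM, and the 5 genes closest in centred log2 CPM (prior count 2). The labels tie each replicate number to a separate occasion, so it pairs a brain with a spleen library. Deviations from the group mean correlated between libraries of the same number at 0.0269 (Pearson) and −0.0149 (Spearman) across genes. P-values measure the spread between these pooled libraries only. Replicates differed beyond sampling noise: chi-square per gene averaged 9.37 for brain and 64.6 for spleen (about 1 from sampling alone).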

Additional observations from a re-analysis of the deposited data

How the results depend on the processing

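Of the 9 enzymes 4 were called, and 345 of all genes. With the replicate block 6 enzymes and 1853 genes were called. The filter of at least 1 CPM in all libraries left 2 enzymes and 124 genes, and no filter gave 6 and 2123. DESeq2 called 6 enzymes and 924 genes. Removing the length trend together with the replicate block gave 5 and 1027. Removing GC and length trends gave 6 and 815, and with the replicate block 7 and 2235. These gene counts are in both directions, and each enzyme called was higher in brain. Of the tested genes, 1.63% were called higher in the main fit and 7.48% with the replicate block. The filter of at least 1 CPM left 0.851% of 12684 genes higher, and no filter gave 3.67% of 34540. DESeq2 gave 3.45% of 15390. Removing the length trend with the block gave 4.02%. Removing GC and length trends gave 2.74%, and 6.59% with the block. Leaving out 1 library gave 3 to 7 enzymes higher in brain and 404 to 6807 genes in either direction, the highest without spleen replicate 1 (7 enzymes higher and 1, EBP, lower, and 6807 genes, with 3128 without spleen replicate 2 and 551 without brain replicate 2). Each such fit has 1 sample in an arm, whose spread is taken from the other arm. Its calls of enzymes and of genes are therefore not weighed against each other. The share of calls higher in brain was 80.9%, and 49.8% to 87.1% over the alternatives. The EBP fold change turned from −0.07 to 0.020 and 0.082 with the length, or GC and length, trends removed, and to 0.035 and 0.087 with the replicate block as well. Leaving out 1 library gave −0.32 to 0.17, above 0 without spleen replicate 2. The cause was not tested. The other 8 enzymes stayed above 0 in all 15 alternatives. Over all 9 enzymes, 101 of 135 fold changes kept their direction and side of the threshold, 7 lost a call and 22 gained one. Using TPM as deposited moved 5 of 18 group means of TPM by over 1 SD, and using shares of estimated counts moved 3 of 5 differences in transcript share. Depth limits TM7SF2 most, at 53 to 151 counts.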
